A study of Mus musculus with 6 samples.

Results

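Schwann cells make the myelin of peripheral nerves, including the nerve roots that enter and leave the spinal cord, whereas oligodendrocytes make the myelin inside the cord. Peripheral and central myelin share some proteins, such as myelin basic protein, but several membrane, junction and scaffold proteins are made mainly by Schwann cells. RNA of such genes in a dissected spinal cord can therefore come from pieces of root that stayed attached to the tissue. The genes described here are Pmp22, Prx, Pmp2, Ncmap, Egr2, Cldn19 and Drp2, which are 7 of the 35275 genes in the deposited tables. They were found by matching the Ensembl identifiers of the tables to these gene symbols, a rule that uses no measured value.

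Poly(A) RNA of whole spinal cord was sequenced from 3 Sox2 cKO and 3 control (Ctrl) mice on the C57BL/6 background. The study's methods give 2 females and 1 male in each group, and sex was not part of the test. Sox2 cKO mice (mGfap-Cre:Sox2fl/fl) carry Cre recombinase under the mouse Gfap promoter, which is active in astrocytes, together with 2 floxed Sox2 alleles. Schwann cells are not the intended target of this Cre. The sample labels describe Ctrl mice as mGfap-Cre:Sox2+/+, the series design allows either Cre or the floxed alleles in controls, and the study's methods describe floxed littermates without Cre. The age is 90 days in the sample labels and 80 days in the extraction protocol. The deposited columns are numbered. Columns 2, 4 and 6 belong to Ctrl and columns 1, 3 and 5 to Sox2 cKO by the numbering of the mice. The tables do not tie a column to a labelled replicate, and libraries are named by column number. Values of single libraries are given in the order 2, 4, 6 for Ctrl and 1, 3, 5 for Sox2 cKO.

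Libraries held between 21507911 and 28392184 counted reads. Sox2, the deleted gene, had TMM-normalized read counts (CPM, reads scaled to a common library size with edgeR) of 19.9, 14.8 and 29.5 in Ctrl. Its Sox2 cKO values were 3.16, 2.69 and 2.98 CPM, and the 2 groups did not overlap. Mog, a protein of oligodendrocyte myelin, was at 285 to 344 CPM in all 6 libraries. Each library thus held RNA of oligodendrocytes, but Mog cannot tell spinal cord from other central tissue or gauge the root left on it. Ctrl library 6 was the lowest library for 6 of the 7 genes and for 5 of 10 other Schwann cell genes. The same held for all 8 genes of connective tissue fibroblasts examined. Results for the 7 genes, and calls for related genes, are therefore also given without Ctrl library 6.

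None of the 7 genes passed the test between Sox2 cKO and Ctrl, while 24.6% of the 16137 genes tested did. For Pmp22, Prx, Pmp2 and Cldn19 both the highest and the lowest of the 6 libraries were Ctrl. The lowest level was in Ctrl library 6 for 6 of the 7. Cldn19, Pmp2 and Prx were there more than 1 log2 unit below the mean of the other libraries. Drp2 was the exception, with almost the same level in every Ctrl library and a slightly lower one in Sox2 cKO. Fewer Schwann cells and less RNA in each Schwann cell cannot be told apart in such bulk RNA. Levels per length of transcript, in the deposited FPKM values averaged over 6 libraries, ran from Pmp22 at 69.2 through Drp2 at 6.18, Ncmap at 1.68, Prx at 1.46, Pmp2 at 0.490 and Cldn19 at 0.286 to Egr2 at 0.164. The ranges over libraries of Pmp22, Drp2 and Ncmap were apart in that order, and from Ncmap downwards each gene overlapped with the next.

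**Figure D1:**
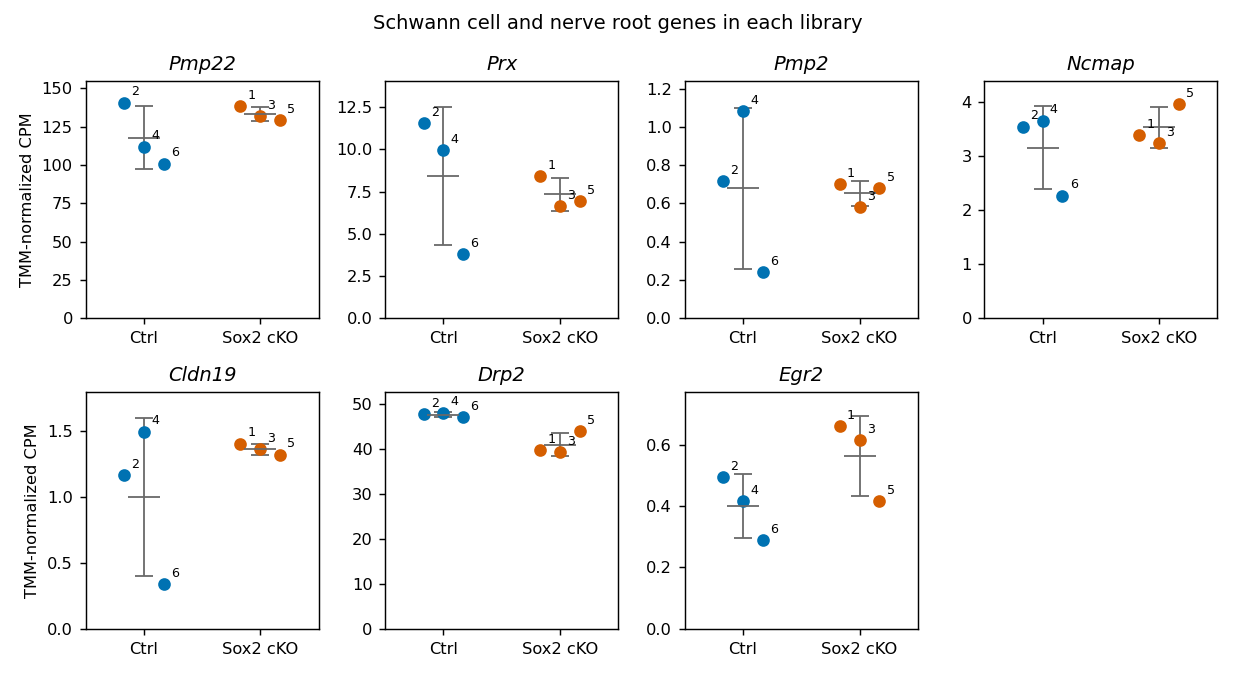
TMM-normalized CPM (vertical axis, from 0) of the 7 genes in Ctrl (blue) and Sox2 cKO (orange) libraries; each point is 1 library with its number, and the grey bars give the mean and SD of 3. Ctrl library 6 is the lowest point in every panel except that of Drp2, in which the 3 Ctrl points lie together between 46.9 and 48.0 CPM.

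The genes of the myelin sheath itself were examined first. Pmp22 (ENSMUSG00000018217, mm10 chromosome 11, 63128982 to 63159547, plus strand) encodes a membrane protein of compact peripheral myelin and is also made at lower levels by other cell types. It was at 141, 112 and 101 CPM in Ctrl, with 139, 132 and 129 CPM in Sox2 cKO. The groups overlapped because Ctrl library 2 was the highest of all. The means were 117.9 ± 20.6 CPM (SD, n = 3) in Ctrl and 133.4 ± 4.64 CPM (SD, n = 3) in Sox2 cKO. Pmp22 had a log2 fold change of 0.18 with a standard error of 0.12, and the 95% interval ran from -0.08 to 0.43 (adjusted p = 0.276, edgeR's quasi-likelihood test with Benjamini-Hochberg adjustment). Without Ctrl library 2 the log2 fold change of Pmp22 was 0.32 and passed the test (edgeR, adjusted p = 0.00974). Without Ctrl library 6 it was 0.08 (edgeR, adjusted p = 0.669), and after a correction for gene length it was -0.01.

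Pmp2 (ENSMUSG00000052468, chromosome 3, 10179851 to 10183929, minus strand) encodes the fatty acid binding protein of peripheral myelin. It had few reads, at 16, 26 and 5 in Ctrl, with 16, 17 and 18 in Sox2 cKO. These corresponded to 0.718, 1.08 and 0.241 CPM in Ctrl and 0.703, 0.580 and 0.680 CPM in Sox2 cKO. All 3 Sox2 cKO libraries lay between the lowest and the highest Ctrl library. The mean was 0.680 ± 0.421 CPM (SD, n = 3) in Ctrl and 0.654 ± 0.0654 CPM (SD, n = 3) in Sox2 cKO. For Pmp2 the log2 fold change was -0.08 with a standard error of 0.46 (edgeR, adjusted p = 0.908). Its 95% interval ran from -1.10 to 0.93, and without Ctrl library 6 the log2 fold change was -0.47 (edgeR, adjusted p = 0.432).

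Ncmap (ENSMUSG00000043924, chromosome 4, 135369576 to 135398227, minus strand) encodes a small membrane protein of noncompact peripheral myelin. It was at 3.54, 3.66 and 2.27 CPM in Ctrl, with 3.38, 3.24 and 3.97 CPM in Sox2 cKO. Ctrl library 6 lay below the 5 others, which were between 3.24 and 3.97 CPM. The mean was 3.16 ± 0.771 CPM (SD, n = 3) in Ctrl and 3.53 ± 0.385 CPM (SD, n = 3) in Sox2 cKO. Ncmap had a log2 fold change of 0.16 with a standard error of 0.22 (edgeR, adjusted p = 0.625), and without Ctrl library 6 it was -0.03.

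Prx and Drp2 encode proteins of one complex. Periaxin, the product of Prx, is a scaffold at the outer membrane of the myelinating Schwann cell, in which it binds DRP2, a dystrophin related protein, and through it dystroglycan. Prx (ENSMUSG00000053198, chromosome 7, 27499324 to 27520214, plus strand) was at 11.6, 9.94 and 3.81 CPM in Ctrl. Its levels in Sox2 cKO were 8.43, 6.65 and 6.91 CPM. The Sox2 cKO libraries thus lay below 2 Ctrl libraries and above the other. The mean was 8.44 ± 4.09 CPM (SD, n = 3) in Ctrl and 7.33 ± 0.962 CPM (SD, n = 3) in Sox2 cKO, with a log2 fold change of -0.21, a standard error of 0.32 and an adjusted p of 0.650 in edgeR.

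The value of Prx rested on single Ctrl libraries, above all on Ctrl library 6. That library had 79 reads on Prx, with a 95% exact Poisson interval of 62.5 to 98.5, against 183 to 258 in the other 5, and such intervals cover counting error only. Without it the log2 fold change of Prx was -0.55 with a standard error of 0.16 and a 95% interval from -0.91 to -0.20. It then missed the threshold in edgeR (adjusted p = 0.0597) and passed it in DESeq2 (log2 fold change -0.57, adjusted p = 0.0386). Without Ctrl library 2, in contrast, it was 0.08 in edgeR.

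Drp2 (ENSMUSG00000000223, chromosome X, 134404551 to 134456573, plus strand) did not follow its partner. It was at 47.7, 48.0 and 46.9 CPM in Ctrl, with 39.7, 39.2 and 43.8 CPM in Sox2 cKO. Each Sox2 cKO library was below each Ctrl library, which held for Drp2 alone among the 7 genes, while the groups did not overlap in either direction for 44.7% of the 16137 genes tested. The mean was 47.5 ± 0.561 CPM (SD, n = 3) in Ctrl and 40.9 ± 2.53 CPM (SD, n = 3) in Sox2 cKO. For Drp2 the log2 fold change was -0.22 with a standard error of 0.08 and a 95% interval from -0.39 to -0.04, and it did not pass the test (edgeR, adjusted p = 0.0721). An exact 2-sided permutation test gave p = 0.1, the smallest value that 3 against 3 libraries allow. Without Ctrl library 6 the log2 fold change was -0.22 as well, but after the correction for gene length it was 0.05, and Drp2 has 7135 bases of transcript, the most of the 7 genes. The level of Drp2 in Ctrl library 6 was close to that in the other Ctrl libraries, so it did not move with the other Schwann cell genes of the list.

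Cldn19 (ENSMUSG00000066058, chromosome 4, 119255414 to 119262438, plus strand) encodes a claudin of the tight junctions within the Schwann cell sheath. It had 26, 36 and 7 reads in Ctrl, with 32, 40 and 35 in Sox2 cKO. As CPM these were 1.17, 1.5 and 0.338 in Ctrl and 1.41, 1.36 and 1.32 in Sox2 cKO. The Sox2 cKO libraries were close together, and Ctrl library 6 alone lay far below. The mean was 1.0 ± 0.597 CPM (SD, n = 3) in Ctrl and 1.36 ± 0.0417 CPM (SD, n = 3) in Sox2 cKO. The log2 fold change of 0.43 had a standard error of 0.41 (edgeR, adjusted p = 0.470), and it was 0.03 without Ctrl library 6.

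Egr2 (ENSMUSG00000037868, chromosome 10, 67535475 to 67542188, plus strand) encodes the transcription factor that switches Schwann cells to myelination and keeps the myelin genes active. It was the lowest of the 7, at 11, 10 and 6 reads in Ctrl, with 15, 18 and 11 in Sox2 cKO. These were 0.493, 0.416 and 0.290 CPM in Ctrl and 0.659, 0.614 and 0.416 CPM in Sox2 cKO. The Poisson intervals of the lowest count (2.20 to 13.1) and of the highest (10.7 to 28.4) overlapped. The mean was 0.400 ± 0.103 CPM (SD, n = 3) in Ctrl and 0.563 ± 0.129 CPM (SD, n = 3) in Sox2 cKO. Egr2 had a log2 fold change of 0.48 with a standard error of 0.39 and a 95% interval from -0.39 to 1.35 (edgeR, adjusted p = 0.389), and without Ctrl library 6 it was 0.30.

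EGR2 belongs to a family that binds GC-rich sites, and Cldn19 is the member with the largest contrast between Ctrl library 6 and the other libraries. RefSeq promoter windows (GRCm38.p6, 250 bases before to 50 after a transcript start) were available for 5 of the 7 genes, 14 windows in all. They were searched on both strands for GTGGGCG, the core of the EGR site, and for ACAAAG, a core of SOX sites. The EGR core was in 3 of the 14 windows (21.4%), against 7.97% of 32851 windows of all genes, but 2 of the 3 are overlapping windows of Cldn19 that share the same match. The SOX core ACAAAG was in 0 of the 14 windows, against 18.7% of all windows, and several Egr2 windows also overlap. The SOX2 motif in the paper, CAAAG and its variants, is shorter and was not counted. CAAAG lies on the reverse strand in windows of Pmp22 and Prx, so the 0 does not show that SOX sites are absent. The 2 distinct stretches with an EGR core are printed with their 250 upstream bases, with the core in capitals (GTGGGCG, or CGCCCAC where it lies on the reverse strand), to show where it lies before the start. A match describes letters and is not evidence of binding.
Cldn19, chr4:119255191-119255440, plus strand, core starting at -86: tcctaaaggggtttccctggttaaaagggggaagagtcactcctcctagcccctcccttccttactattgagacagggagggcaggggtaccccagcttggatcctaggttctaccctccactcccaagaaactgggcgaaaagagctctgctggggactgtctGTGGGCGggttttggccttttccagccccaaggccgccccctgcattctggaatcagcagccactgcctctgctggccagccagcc
Egr2, chr10:67535249-67535498, plus strand, core starting at -31: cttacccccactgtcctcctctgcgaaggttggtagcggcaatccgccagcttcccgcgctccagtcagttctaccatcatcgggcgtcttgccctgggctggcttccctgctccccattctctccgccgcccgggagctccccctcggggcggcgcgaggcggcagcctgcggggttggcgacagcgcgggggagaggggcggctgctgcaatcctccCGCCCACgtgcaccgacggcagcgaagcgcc

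Over the whole list, 7 of 7 genes passed the filter on low counts, 0 were called higher and 0 lower in Sox2 cKO by edgeR, and 1, Drp2, had an unadjusted p below 0.05. DESeq2 also called 0 of the 6 to which it gave an adjusted p. Among all 16137 genes tested, 24.6% were called in either direction by edgeR. The point estimates were lower for 3 and higher for 4 of the 7, with a median log2 fold change of 0.16 against 0.018 over all genes tested. Without Ctrl library 6 edgeR again called 0 of 7, with 4 lower and 3 higher and a median of -0.03, while 6.54% of all genes were called.

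**Figure D2:**
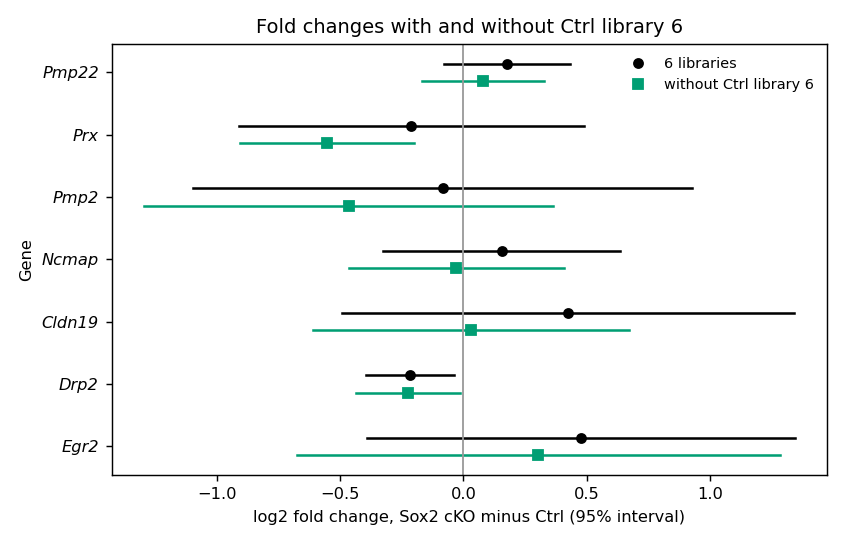
Log2 fold change of Sox2 cKO minus Ctrl (horizontal axis) for the 7 genes, with 95% intervals from edgeR, in all 6 libraries (black circles) and without Ctrl library 6 (green squares). Leaving out that library moved Prx from -0.21 to -0.55 and Cldn19 from 0.43 to 0.03, and left Drp2 at -0.22.

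The median spread between libraries was wider for the 7 genes than for all genes, though not for each of them. Ctrl library 6 was the lowest of the 6 libraries for 6 of the 7 genes, and it was the lowest for 24.2% of all genes tested. In log2 CPM, Ctrl library 6 was below the mean of the 5 others by a median of -0.67 over the 7 genes, against -0.0048 over all genes. The distance was more than 1 log2 unit for 3 of the 7, Cldn19 at -1.77, Pmp2 at -1.34 and Prx at -1.14, and for 3.33% of all genes. It was -0.67 for Egr2, -0.63 for Ncmap and -0.37 for Pmp22, and Drp2 was the only gene of the 7 above the others, by 0.11. The median SD within groups was 0.31 log2 units for the 7 genes and 0.15 for all genes. Drp2, at 0.063, was below the median of all genes, and Pmp22, at 0.18, was close to it. Pmp2, Cldn19 and Egr2 had counts of 40 or fewer in every library.

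The 7 genes did not vary as one group. As a description over 6 libraries, Pearson's r of the log2 CPM of each gene with the mean of the other 6 genes was 0.92 for Prx, 0.91 for Cldn19, 0.90 for Pmp2 and 0.88 for Ncmap. It was 0.66 for Pmp22, 0.54 for Egr2 and -0.31 for Drp2. All these values share Ctrl library 6, the library farthest from the others for most of the 7. Drp2 thus went against the name of the group, in that its level did not follow that of the other genes of nerve roots.

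A list of 10 further Schwann cell genes was examined beside them. Of these, edgeR called 0 of the 10 in either direction, against 24.6% of all genes tested. In edgeR 2 had an unadjusted p below 0.05, Pou3f1 and Art3. DESeq2 called 1 of the 10, Pou3f1, lower. Cdh19, a cadherin of the Schwann cell lineage, was at 26.8, 28.6 and 26.6 CPM in Ctrl and at 25.5, 27.3 and 32.1 CPM in Sox2 cKO, with no low value in Ctrl library 6. The list was the lowest in Ctrl library 6 for 5 of 10 genes, with a median distance of -0.39, and its median log2 fold change was 0.04. Ngfr and Pou3f1 were instead highest in Ctrl library 6, at distances of 0.39 and 0.47, and Art3 was at -0.02.

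Fibroblast genes, like 6 of the 7 genes and unlike Drp2, were low in Ctrl library 6. Fibroblasts form the sheaths of nerves and roots and lie in the meninges around the cord. All 8 of the fibroblast genes examined were the lowest in Ctrl library 6. Their median distance from the mean of the other libraries was -1.57 log2 units, and 7 of the 8 were more than 1 log2 unit below that mean. Their summed level was 617, 569 and 219 CPM in Ctrl, with 604, 464 and 463 CPM in Sox2 cKO. Igf2, a growth factor of meningeal fibroblasts, was at 85.8 CPM in Ctrl library 6 and at 231 to 336 CPM elsewhere, and Col1a2, a chain of type I collagen, was at 70.3 CPM there and at 82.2 to 118 CPM elsewhere. edgeR called 0 of the 8 with all libraries, with 1 at an unadjusted p below 0.05, as did DESeq2, and edgeR called 3 of the 8 lower in Sox2 cKO without Ctrl library 6. These were Col3a1 at -1.38, Col1a1 at -0.89 and Col1a2 at -0.42 on the log2 scale, named after their values were seen. The 8 genes did not move together, as 4 were then lower and 4 higher, with a median of -0.0087. Dcn, for example, was at 0.29. Of all genes tested, edgeR called 24.6% with all libraries and 6.54% without Ctrl library 6. The part of connective tissue in the values of the 7 genes was not tested.

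Lists of myelin genes shared with oligodendrocytes, and of oligodendrocyte genes, did not show the low values of Ctrl library 6, apart from Hapln2 at -0.65 and Aspa at -0.40 log2 units. That library was the lowest for 1 of 10 shared genes, with a median distance of -0.09, and for 2 of 10 oligodendrocyte genes, with a median distance of -0.02. Mbp, myelin basic protein, was at 12680 CPM in Ctrl library 6 against 12171 to 15330 CPM in the others. edgeR called 0 of the 10 shared genes, with 2 at an unadjusted p below 0.05, and DESeq2 called 3 lower. Of the oligodendrocyte genes edgeR called 1 lower in Sox2 cKO, the myelin transcription factor gene Myrf at -0.42 (adjusted p = 0.0249). It called 2 higher, Hapln2 at 0.59 (adjusted p = 0.0127) and Klk6 at 0.28 (adjusted p = 0.0420). DESeq2 called 2 of these 10 lower and 2 higher. Over all genes tested edgeR called 24.6% in either direction. Without Ctrl library 6 edgeR called 1 of these 10 genes, Hapln2 at 0.48, while Myrf (adjusted p = 0.0821) and Klk6 (adjusted p = 0.0898) did not pass.

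**Figure D3:**
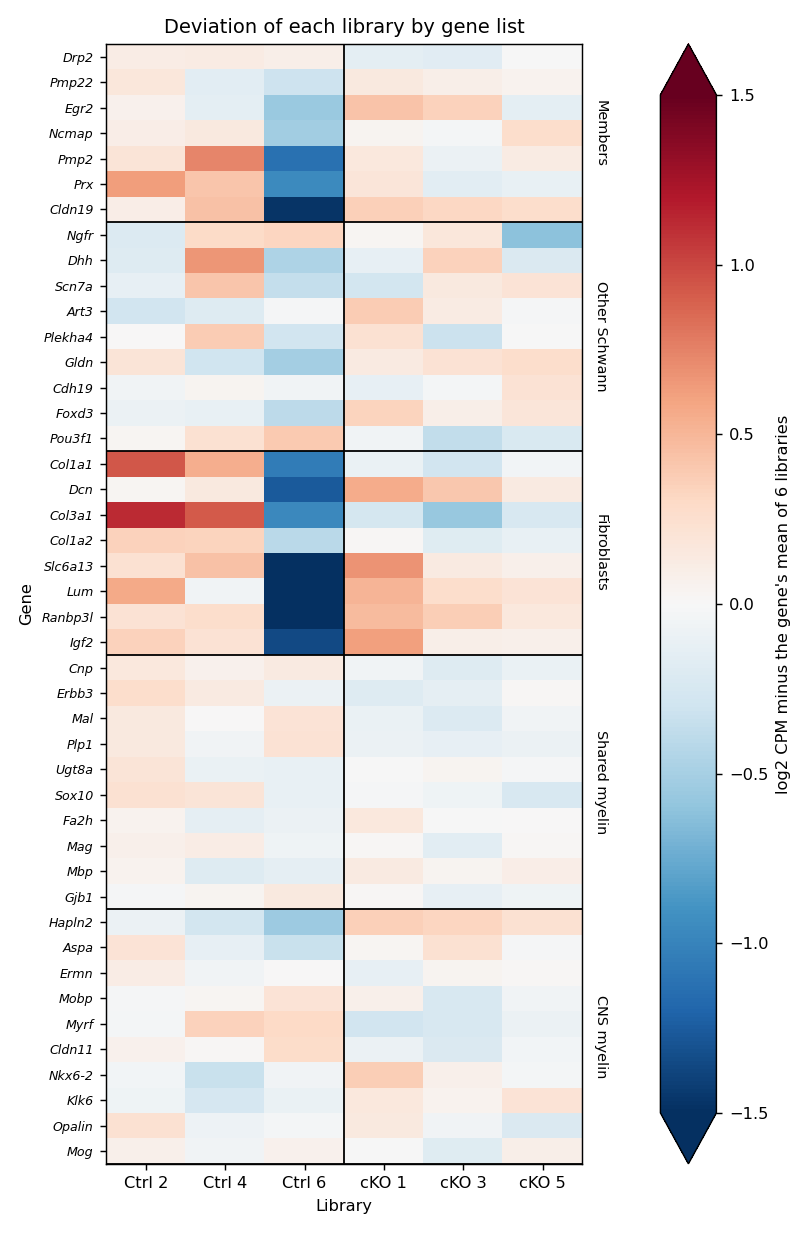
Log2 CPM of each gene minus its mean over the 6 libraries (colour, blue lower and red higher, with values past the ends of the scale shown in the end colours), with libraries in columns and genes in rows grouped by list. The Ctrl 6 column is blue for 6 of the 7 members and for all 8 fibroblast genes, and pale for most shared and oligodendrocyte myelin genes.

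The partners and relatives of the 7 genes were then counted. DRP2 and periaxin link to the dystroglycan complex, which astrocytes and vessel cells of the cord also carry. Of 10 genes of this complex edgeR called 3 lower in Sox2 cKO and 0 higher, while it called 24.6% of all genes tested. These 3 were Dag1, dystroglycan itself, at -0.37 (adjusted p = 0.0233), Utrn, utrophin, at -0.35 (adjusted p = 0.0208) and Dtna, a dystrobrevin, at -0.32 (adjusted p = 0.0282). Their log2 fold changes were on the same side as that of Drp2 before the correction for gene length, and the median of the 10 was -0.27. Without Ctrl library 6 edgeR called 0 of the 10, with 8 lower and a median of -0.28.

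Counts for the relatives stand beside the 24.6% of all genes tested that edgeR called. Among 4 relatives of Pmp22, edgeR called Emp1 (-0.48, adjusted p = 0.0479) and Emp2 (-0.31, adjusted p = 0.0288) lower, while Pmp22 itself was at 0.18. Of these 4, edgeR called Emp1 alone without Ctrl library 6, and Emp2 did not pass (adjusted p = 0.0869). Among 4 other fatty acid binding protein genes, relatives of Pmp2, edgeR called 3 higher. These were Fabp4, known from fat cells and small vessels, at 3.01 (adjusted p = 0.0130), Fabp3 at 0.56 (adjusted p = 0.0146) and Fabp5 at 0.39 (adjusted p = 0.0372), while Pmp2 was at -0.08. Fabp4 was at 0.224, 0.374 and 0.338 CPM in Ctrl, with 1.63, 1.16 and 4.87 CPM in Sox2 cKO, and the groups did not overlap. Fabp4 alone was called by edgeR without Ctrl library 6, at 3.06, while Fabp3 (adjusted p = 0.0502) and Fabp5 (adjusted p = 0.0773) did not pass. Among 4 other claudins and 5 genes of EGR factors and their NAB corepressors edgeR and DESeq2 called 0, with 2 claudins and 0 of the EGR group at an unadjusted p below 0.05. The most abundant of these were Cldn10 at -0.10 and Cldn12 at -0.0015, and Nab1 at -0.15 and Egr1 at -0.0071 on the log2 scale.

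Dorsal root ganglia lie beside the roots and hold the cell bodies of sensory neurons, and their genes were read as a gauge of ganglion tissue on the cord. Reads on Scn10a, a sodium channel of pain-sensing neurons, numbered 1, 95 and 2 in Ctrl, with 1, 4 and 44 in Sox2 cKO. Scn11a, a related channel, had 1, 54 and 0 reads in Ctrl and 4, 2 and 22 in Sox2 cKO. Ctrl library 4 and Sox2 cKO library 5 were thus high and the other 4 near 0, a different order from that of the 7 genes. Avil, an actin binding protein of the same neurons, had 72 and 35 reads in those libraries and 11 to 23 in the others, and Mrgprd had 18 and 3 reads there and 0 or 1 elsewhere. Of 9 genes on the list 5 passed the filter, and edgeR and DESeq2 called 0, with 0 at an unadjusted p below 0.05. Pmp2, Cldn19 and Drp2 were highest in Ctrl library 4, at 1.08, 1.5 and 48.0 CPM, and Ncmap was highest in Sox2 cKO library 5, at 3.97 CPM. The remaining members were highest elsewhere, Pmp22 and Prx in Ctrl library 2 and Egr2 in Sox2 cKO library 1. Drp2 was nearly as high in Ctrl library 2, at 47.7 CPM. The part of ganglion tissue in these values was not tested. Without both libraries edgeR called 0 of the 7, but it then called only 37 of all 16175 genes tested. With so few calls over all genes, that 0 says little about the 7.

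**Figure D4:**
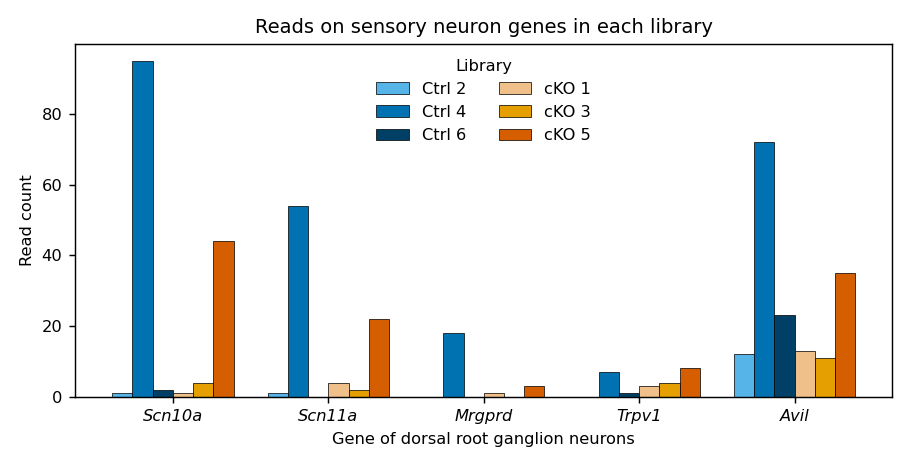
Read counts (vertical axis, from 0) of 5 genes of dorsal root ganglion neurons in each of the 3 Ctrl (blue) and 3 Sox2 cKO (orange) libraries. Ctrl library 4 and Sox2 cKO library 5 carry most reads on Scn10a and Scn11a, whereas Ctrl library 6, the lowest library for 6 of the 7 Schwann cell and nerve root genes, has 2 and 0.

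The genes whose pattern over the 6 libraries was most like the mean of the 7 were Lepr (r = 0.994), Adamtsl4 (0.994), Pi16 (0.991), 2610507I01Rik (0.986), D230025D16Rik (0.981), Asf1a (0.978), Ttll1 (0.976), Utp4 (0.976), Dusp7 (0.972) and Cenpl (0.972). They were ranked by Pearson's r of log2 CPM among 13319 genes with a mean count of at least 50, as a description of 6 libraries. Lepr, the leptin receptor, was at 2.66 CPM in Ctrl library 6 and at 5.56 to 6.86 CPM in the others. Pi16, a gene of fibroblasts, was at 2.17 CPM there and at 5.74 to 8.97 CPM in the others. All 10 had their lowest value in Ctrl library 6, which the ranking itself favours because most of the 7 genes were lowest there. Their distances from the mean of the other libraries ran from -1.68 for Pi16 to -0.16 for Utp4 in log2 CPM.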

How the data were processed

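Libraries were made from poly(A) RNA with a directional kit, from RNA with an integrity number above 6.8 per the labels. Read counts per gene were deposited by the authors without normalization. They came from HTSeq 0.6.1 after alignment of the single-end reads by STAR 2.5 to mm10. The strand setting is not given in the sources used here, so reads of Prx, Cldn19 and Ncmap could include those of overlapping genes, which had 0 to 5 counts. The authors also deposited FPKM values, divided by gene length and library total. The column numbers were grouped by the study's own numbering of mice, and 1999 of 1999 listed group means matched within 0.1%, against 0 with groups exchanged. No pair of libraries was a copy, with chi-square per degree of freedom of 7.23 or more over 15 pairs. Nothing in the tables ties libraries to cages or litters, so p-values measure the spread between these mice.

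Symbols came from GENCODE M21 (34490 of 35275 identifiers). Counts were fitted over all genes in R 4.3.3 with edgeR 4.0.16 (filterByExpr, TMM, quasi-likelihood test without covariates, Benjamini-Hochberg adjustment at 0.05), and the script was tested on simulated data. Log2 CPM used a prior count of 2. Alternatives were DESeq2 1.42.0, RLE and upper quartile factors, other count filters, limma 3.58.1 on log2(FPKM + 1) and log2(FPKM + 0.1) for a mean FPKM of at least 0.5, a lowess length correction with a span of 0.3, leaving out each library and, added after seeing the data, DESeq2 without Ctrl library 6 and edgeR without libraries 4 and 5. Named were the 7 genes, Sox2, up to 3 called genes of each list by size of change, or the 2 most abundant where none was called, and the 10 genes most like the 7. Genes outside this rule (Mog, some other Schwann cell genes, and the ganglion and some fibroblast genes) were named after their values were seen. One further gene covered by the rule is not reported here. The members and lists were chosen with earlier results of these data known.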

Additional observations from a re-analysis of the deposited data

How the results depend on the processing

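In the settings other than those named here, 0 of the genes tested among the 7 were called. DESeq2 gave an adjusted p for 6 of them, and the filter of 10 counts in every library and both limma settings tested 4. DESeq2 without Ctrl library 6 called 1 lower, Prx, of the 4 with an adjusted p. The count called higher ranged from 0 to 1 when single libraries were left out, the 1 being Pmp22 without Ctrl library 2. Of the 10 other Schwann cell genes, DESeq2, RLE factors and no filter each called 1 lower, Pou3f1 (log2 fold change -0.44 in all libraries, edgeR adjusted p = 0.0510), as did leaving out Ctrl library 2 (range 0 to 1). limma on either FPKM scale called 1 higher, Art3. The sign turned after the length correction for Pmp22 (-0.0089), Ncmap (-0.0056) and Drp2 (0.0535), for Prx on log2(FPKM + 0.1) (0.0244), for Ncmap in DESeq2 without Ctrl library 6 (-0.0434) and for Pmp2 without libraries 4 and 5 (0.389). Leaving out single libraries gave log2 fold changes from -0.554 to 0.0781 for Prx, from -0.466 to 0.423 for Pmp2 and from -0.0286 to 0.276 for Ncmap. The causes were not tested. Over all genes, 3970 calls became 8 without Sox2 cKO library 1, 26 without Ctrl library 4 and 6119 without Ctrl library 2, 2109 after the length correction and 37 without libraries 4 and 5. Of the 10 most similar genes, 1 was shared when values were centred on group means and 7 with a mean count of at least 200. No paired analysis was possible because the columns carry no replicate numbers. Counts of 5 to 40 limit Pmp2, Egr2 and Cldn19.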

Other observations

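Of 8 endothelial genes, which mark blood vessels, 1 was the lowest in Ctrl library 6, with a median distance of -0.03 log2 units from the other libraries and Ly6c1 farthest below at -0.84. edgeR called 1 of the 8, Ly6c1, higher in Sox2 cKO, at 1.09 on the log2 scale, and at 1.02 without Ctrl library 6. Sox2 cKO library 1 stood out for Cldn5, the claudin of vessel walls, with 43.6 CPM against 15.5 to 19.3 CPM in the others.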
